A study of Homo sapiens with 18 samples.

Results

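GAS5 and the SNHG genes are noncoding RNA genes whose introns carry small nucleolar RNAs (snoRNAs). Of 10 listed genes, chosen by name as GAS5 and the better-known snoRNA host genes, 9 had an entry among the 20705 genes of the count table and were followed in all 9 groups of melanoma cells. They were GAS5, SNHG1, SNHG5, SNHG6, SNHG7, SNHG8, SNHG12, SNHG15 and SNHG16. SNHG3 was not analysed here.

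A host gene is transcribed and spliced, the introns are trimmed to snoRNAs, and the joined exons leave the nucleus as a polyadenylated RNA that encodes no long protein. Box C/D snoRNAs guide ribose methylation of ribosomal RNA and box H/ACA snoRNAs guide its pseudouridylation, so the hosts supply parts for ribosome assembly. Many spliced host RNAs start with a pyrimidine tract like that of ribosomal protein mRNAs (the terminal oligopyrimidine, or TOP, tract), are bound by ribosomes and are then removed by nonsense-mediated decay, which makes their level sensitive to translation and growth. GAS5 takes its name from growth arrest-specific transcript, since it was isolated as an RNA that builds up in cells that stop dividing, and its RNA can also bind the glucocorticoid receptor.

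CHL1 (wild-type BRAF and NRAS, mutant p53) and A375 (mutant BRAF, wild-type p53) are established human melanoma lines, grown in DMEM and RPMI respectively. Palbociclib at 1 μM (CDK4/6i) blocks the kinases CDK4 and CDK6 that start the cell cycle, and GSK3326595 at 500 nM (PRMT5i) blocks the arginine methyltransferase PRMT5. Poly-A RNA was sequenced in 2 replicate libraries for each of 9 groups: DMSO control for 72 hours, CDK4/6i for 72 hours, CDK4/6i for 6 days and PRMT5i for 72 hours in both lines, and a further DMSO control for 6 days in A375. All 3 CHL1 treatments were set against the 72-hour control and therefore share it, as the 2 A375 treatments of 72 hours share theirs.

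The start sites are printed because TOP tracts lie there and were not used to choose the genes. RefSeq promoter sequences (GRCh38.p14) were at hand for 7 of the 9 genes. Each line runs 5′ to 3′ on the gene's own strand from 40 bases before the annotated start to 50 bases after it, and capitals mark pyrimidine motifs (the letters CTTTT, or else the letters CTTTC, or else the letters CCTTT, which may overlap each other) from 10 bases before to 50 bases after the start, and the letters TATAA from 40 to 20 bases before it.
GAS5, chr1:173868996-173869085, minus strand: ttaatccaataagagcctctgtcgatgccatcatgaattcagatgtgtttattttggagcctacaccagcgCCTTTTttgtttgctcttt
SNHG5, chr6:85678684-85678773, minus strand: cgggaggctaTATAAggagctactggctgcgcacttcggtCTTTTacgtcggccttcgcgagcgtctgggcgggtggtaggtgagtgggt
SNHG8, chr4:118278722-118278811, plus strand: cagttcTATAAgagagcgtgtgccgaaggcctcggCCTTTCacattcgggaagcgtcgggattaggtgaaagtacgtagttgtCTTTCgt
SNHG12, chr1:28581824-28581913, minus strand: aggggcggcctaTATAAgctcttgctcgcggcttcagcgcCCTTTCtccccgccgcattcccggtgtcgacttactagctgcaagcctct
SNHG16, chr17:76557724-76557813, plus strand: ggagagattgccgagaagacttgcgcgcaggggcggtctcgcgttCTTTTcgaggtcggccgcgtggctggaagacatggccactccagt
SNHG7, chr9:136728135-136728224, minus strand: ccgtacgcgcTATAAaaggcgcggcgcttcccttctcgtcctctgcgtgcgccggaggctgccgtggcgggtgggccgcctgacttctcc
SNHG1, chr11:62855836-62855925, minus strand: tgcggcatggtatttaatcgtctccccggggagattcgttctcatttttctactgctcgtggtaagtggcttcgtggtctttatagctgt
A pyrimidine motif of these letters was present on the gene's own strand in 5 of 7 sequences (71.4%), against 15.4% of all 35116 promoters in the same window, and on the opposite strand in 1 of 7 (14.3%) against 14.2%. TATAA was present in 4 of 7 (57.1%), against 3.82% of all promoters, and on the opposite strand in 0 of 7 against 1.61%. SNHG1 held neither of these letter strings. The GAS5 match lies well after the annotated start, where a TOP tract would not begin. SNHG7 has a pyrimidine-rich stretch around its start that holds none of the listed letters and is not counted. The motifs were chosen after the sequences had been seen, so the shares are a description and were not tested, and a match is not shown to be a used start or binding site.

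The 18 libraries held 16213475 to 37424081 counted reads. MITF, the melanocyte lineage regulator, was measured in every library at 63.8 to 211 CPM (the TMM-scaled share of a library's counts), while PMEL stayed at or below 3.25 CPM and TYR at or below 5.02 CPM, so these pigment genes were near 0 in both lines. DCT, a further pigment gene, was at 36.3 to 142 CPM in CHL1 and at or below 1.79 CPM in A375. TYRP1 stayed at or below 4.01 CPM in both lines. Of other melanoma markers, CSPG4 was at 19.2 to 121 CPM in CHL1 and at 518 to 774 CPM in A375. S100B was at 11.2 to 128 CPM in CHL1 and at 3.57 to 108 CPM in A375. Of the markers of other cell types, the leukocyte gene PTPRC was at 7.41 to 16.8 CPM in CHL1 and the epithelial gene KRT8 at 12.8 to 188 CPM in A375. The epithelial gene EPCAM stayed at or below 2.59 CPM and the endothelial gene VWF at or below 2.81 CPM in both lines. The part of these markers in the results was not tested. SOX10, MLANA, S100A1, SOX9, CDH1, CD3E and PECAM1 were not analysed here. By their names, the 6 A375 libraries sampled at 72 hours form 1 library set, and the other 12 form another. Of all 18, 4 libraries stood apart in the level of GC-rich genes minus that of GC-poor genes. These are the top 10% and bottom 10% of genes by the GC content of their transcripts. On the log2 scale the difference was -2.49 for replicate 1 and -1.98 for replicate 2 of PRMT5i in CHL1. For the 6-day controls of A375 it was -2.27 (replicate 1) and -1.12 (replicate 2). Every other library lay between -0.17 and 0.50. The 4 are called libraries with shifted GC content below, although the GC content of the reads themselves was not measured here. Many, but not all, fold changes of the 9 genes that rest on these 4 libraries are given below also with a correction for GC content. Those of the other gene lists were not corrected. Counts of calls made with a correction are printed without the share of all genes called under that correction.

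The 9 genes are spread over 8 chromosomes and all are annotated as long noncoding RNA genes (GENCODE release 44 on GRCh37). GAS5 lies at chr1:173827697-173838020 and SNHG12 at chr1:28905050-28909644, SNHG8 at chr4:119199858-119206471, SNHG5 at chr6:86360209-86388650, SNHG15 at chr7:45022618-45026560 and SNHG6 at chr8:67832796-67838633. SNHG7 lies at chr9:139615818-139622636, SNHG1 at chr11:62619450-62623425 and SNHG16 at chr17:74553809-74667067. Since the sources used here do not say whether the libraries kept the strand of the RNA, reads of a neighbour on the other strand cannot be told apart, which touches GAS5 (with GAS5-AS1 and ZBTB37, for example, on the other strand), SNHG6 (MCMDC2), SNHG7 (DIPK1B, which was not analysed here), SNHG8 (PRSS12), SNHG12 (TRNAU1AP) and SNHG16 (ST6GALNAC1 and ST6GALNAC2). Their canonical spliced transcripts differed in base composition, from a GC content of 39.0% for SNHG8, 40.4% for SNHG6, 44.1% for SNHG1, 46.0% for GAS5, 46.5% for SNHG5 and 49.0% for SNHG16 to 50.3% for SNHG15, 54.8% for SNHG12 and 65.9% for SNHG7.

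In untreated cells, the host genes were lower in CHL1 than in A375. GAS5 was at 99.2 and 89.2 CPM in the CHL1 controls and at 202 and 213 CPM in the A375 controls of 72 hours. SNHG8, host of an H/ACA snoRNA, was at 13.7 and 11.1 CPM against 42.6 and 41.5 CPM. The 2 lines did not overlap for either gene, and the share of all genes without overlap is not given here. In a fit of all libraries with edgeR's quasi-likelihood test and Benjamini-Hochberg adjustment over all genes, 7 of 9 host genes were lower in CHL1 at an adjusted p below 0.05, where 29.6% of all genes tested were called lower. The log2 difference was -1.76 ± 0.17 (SE, adjusted p = 4.22e-08) for SNHG8, -1.32 ± 0.17 (adjusted p = 2.12e-06) for SNHG5, -1.30 ± 0.23 (adjusted p = 9.2e-05) for SNHG12 and -1.14 ± 0.17 (adjusted p = 1.36e-05) for GAS5, with 2 libraries a group here and throughout. SNHG6, SNHG7 and SNHG15 were lower by smaller amounts, with log2 differences of -0.96, -0.78 and -0.68. SNHG1 (-0.42 ± 0.22, adjusted p = 0.112) and SNHG16 (-0.44 ± 0.21, adjusted p = 0.0729) did not pass the test. With either GC correction 9 of 9 were lower in CHL1, a count with no corrected share of all genes beside it. Against the A375 control of 6 days, which shares the library set of CHL1 but is 1 of the groups with shifted GC content, 4 of 9 were lower in CHL1, and the log2 differences of SNHG7 (0.26) and SNHG15 (0.11) changed sign. Line, medium and, for the 72-hour controls, library set cannot be told apart in these differences.

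**Figure D1:**
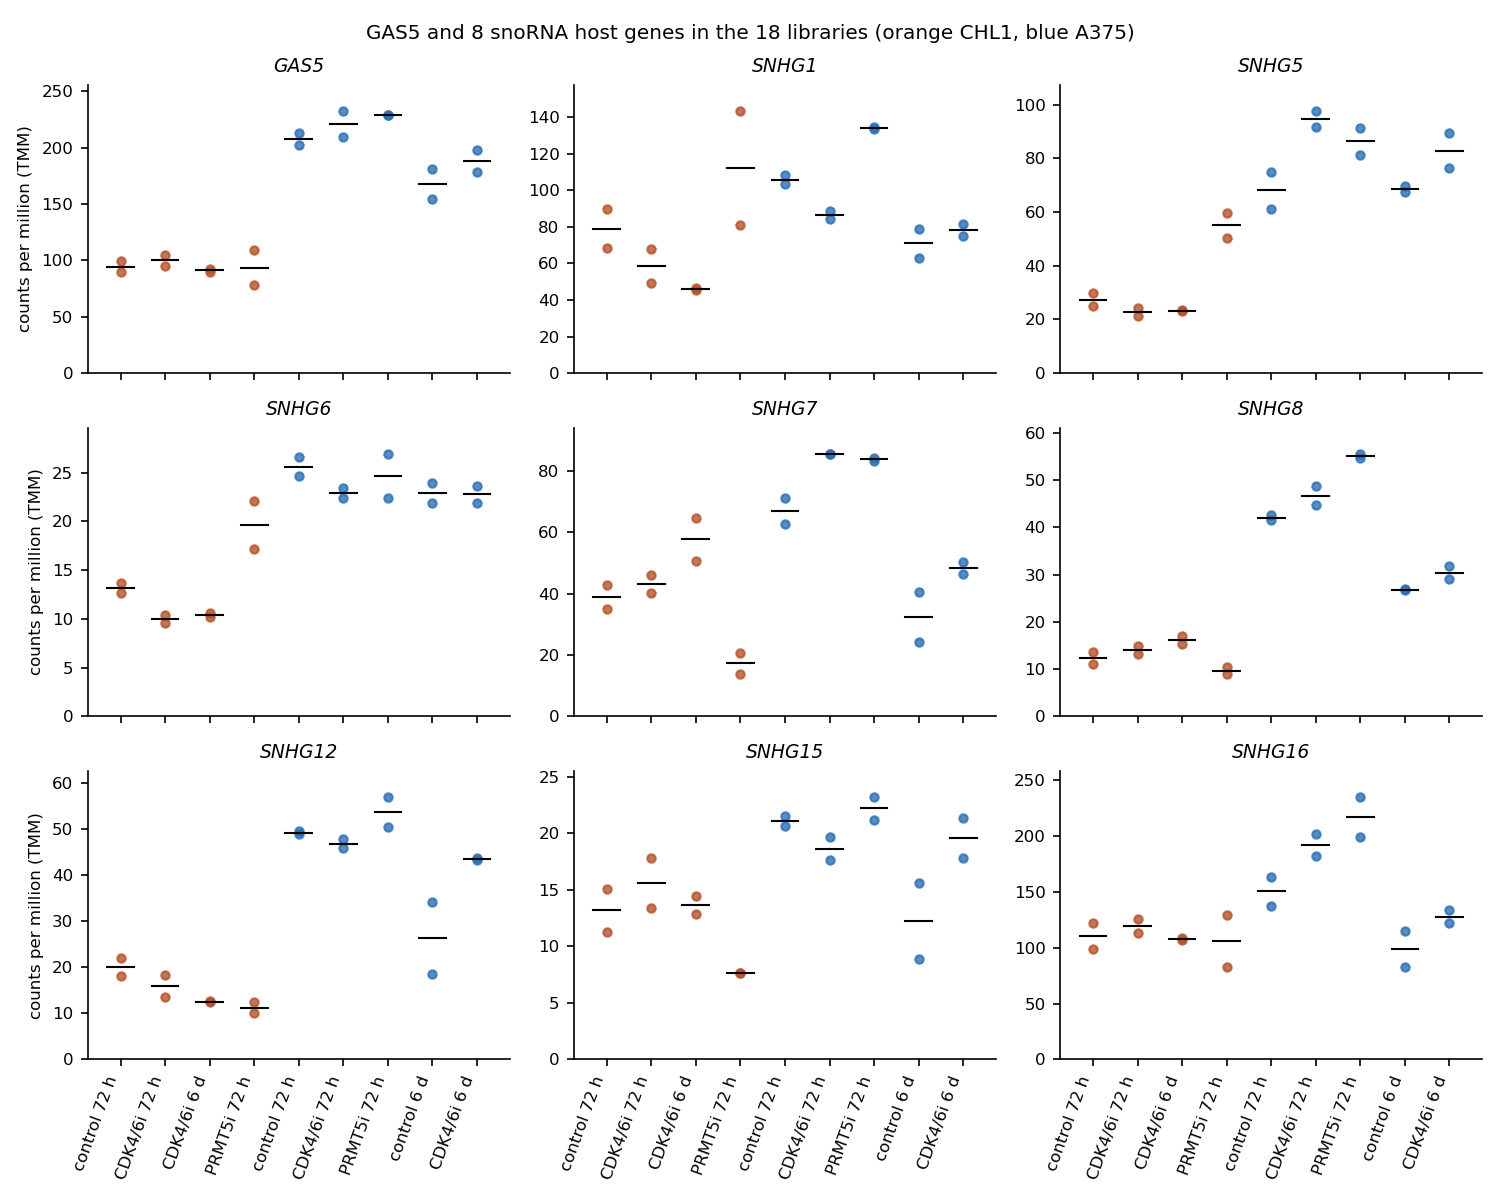
TMM-scaled CPM (y axis, from 0, a scale of its own for each gene) of GAS5 and 8 snoRNA host genes in the 9 groups (x axis). Points are single libraries (orange CHL1, blue A375) and black lines are means of 2 libraries. GAS5 stayed between 78.0 and 109 CPM in all CHL1 libraries and between 155 and 233 CPM in all A375 libraries, while SNHG7, SNHG12 and SNHG15 differed widely between the A375 6-day controls.

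The question for GAS5 was whether its RNA built up when CDK4/6 or PRMT5 was blocked. Without a correction for GC content, no such rise passed the test in any of the 6 comparisons. With a correction on the longest transcript, a rise after 6 days of CDK4/6i in A375 did pass, as given below. Under CDK4/6i for 72 hours GAS5 was at 105 and 95.2 CPM in CHL1, against 99.2 and 89.2 CPM in the control. In A375 it was at 233 and 210 CPM, against 202 and 213 CPM. After 6 days it was at 92.5 and 89.7 CPM in CHL1, and at 198 and 178 CPM in A375 against 181 and 155 CPM in the 6-day control. Treated and control libraries overlapped in all 4 of these comparisons. Under PRMT5i the CHL1 libraries spread over 109 and 78.0 CPM, on both sides of the controls, and the A375 libraries stood at 229 and 229 CPM, above both controls. The log2 fold changes ran from -0.03 ± 0.18 (SE) for CDK4/6i for 6 days in CHL1 to 0.16 ± 0.17 for CDK4/6i for 6 days in A375, with adjusted p of 0.946 and 0.472.

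Proliferation genes were counted in the same comparisons. Of 10 listed (MKI67, CCNA2, CCNB1, CDK1, TOP2A, E2F1, E2F2, MCM2, MCM5 and PCNA), CDK4/6i for 72 hours lowered 10 in A375 and 4 in CHL1, with medians of -1.53 and -0.78 on the log2 scale. Of all genes that averaged 1 CPM or more in the line, 16.9% and 6.72% were called in these comparisons in either direction. At 6 days 7 fell in A375, where 51.7% of such genes were called, and 5 fell in CHL1, where 20.9% were called. PRMT5i lowered 5 in A375, where 3.37% were called, and in CHL1 lowered 5 and raised 2, where 69.7% were called. The CHL1 rise of CDK1, the mitotic kinase, under PRMT5i (log2 fold change 1.57 ± 0.21, adjusted p = 0.000158) stood beside the fall of E2F1, a driver of S-phase genes (-1.29 ± 0.20, adjusted p = 0.000306). Both values rest on the CHL1 PRMT5i libraries with shifted GC content, are not corrected for it, and its part in them was not tested.

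**Figure D2:**
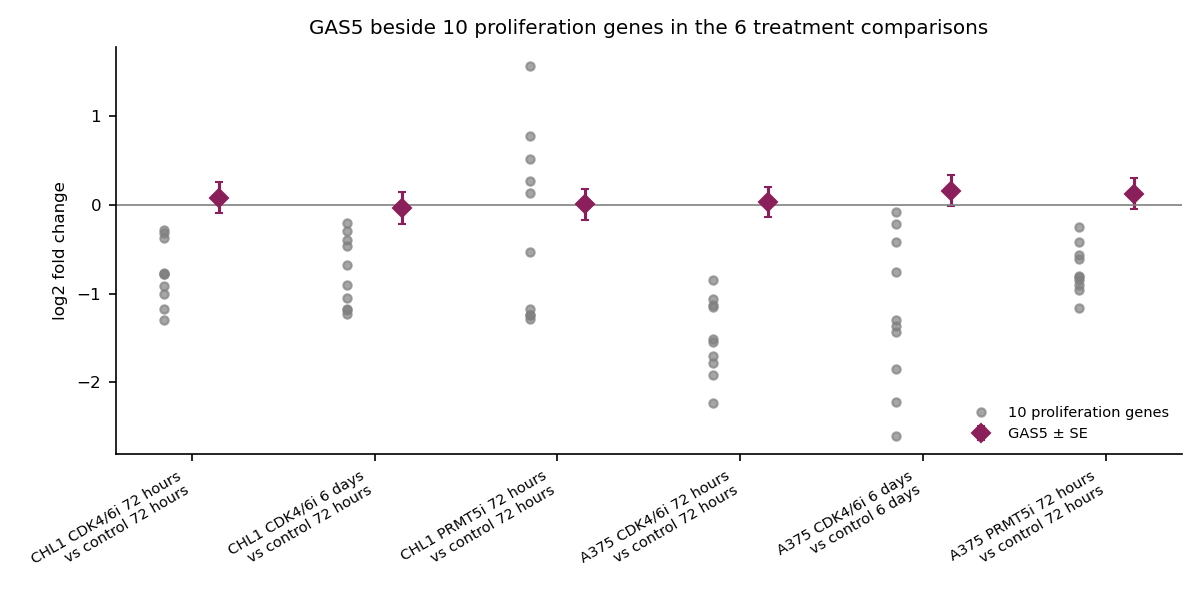
Log2 fold change (y axis) of GAS5 (diamonds, with the standard error) and of 10 proliferation genes (grey points, 1 per gene) in the 6 comparisons of treated with control cells (x axis). GAS5 lies between -0.03 and 0.16 in each comparison, while the median of the proliferation genes lies between -1.53 and -0.20.

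GAS5 in the CHL1 PRMT5i comparison depended on how GC content was handled. The uncorrected log2 fold change was 0.01 ± 0.18 (adjusted p = 1.0). A GC correction that used the longest annotated transcript (39.2% for GAS5) gave -0.83 (adjusted p = 0.00319), and the same correction on the canonical transcript (46.0%) gave -0.14 (adjusted p = 0.455). In A375 after 6 days of CDK4/6i the 3 values were 0.16, 0.73 (adjusted p = 0.0011) and 0.20 (adjusted p = 0.168). The call for GAS5 in these 2 comparisons thus turned on the transcript taken to stand for the gene, and which isoforms the cells used was not tested.

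Under PRMT5i in CHL1 5 of 9 host genes passed the test, 2 up and 3 down, a share close to that of all genes, of which 54% were called, 26.4% up and 27.6% down. SNHG5, host of box C/D snoRNAs, was at 59.7 and 50.5 CPM, against 29.8 and 25.0 CPM in the control. SNHG6, which also carries a C/D snoRNA, was at 22.1 and 17.2 CPM against 13.7 and 12.7 CPM. Both treated libraries lay above both controls for these genes, but the share of all genes separated in this way is not given here. The log2 fold change was 1.03 ± 0.17 (adjusted p = 0.000435) for SNHG5 and 0.60 ± 0.19 (adjusted p = 0.0172) for SNHG6. SNHG1, which carries a series of C/D snoRNAs, was at 144 and 81.0 CPM against 89.6 and 68.5 CPM, with overlapping groups, and did not pass the test (0.52 ± 0.25, adjusted p = 0.098).

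SNHG7, SNHG12 and SNHG15 fell in the same cells. SNHG7, a host of H/ACA snoRNAs, was at 13.9 and 20.8 CPM, against 42.7 and 35.0 CPM in the control. SNHG12, host of both kinds of snoRNA, was at 12.3 and 10.0 CPM against 22.0 and 17.98 CPM. SNHG15 was at 7.65 and 7.67 CPM against 15.1 and 11.3 CPM. Both treated libraries lay below both controls in each case, again without the share of all genes for which this held. The log2 fold changes were -1.15 ± 0.22 (adjusted p = 0.000916), -0.82 ± 0.21 (adjusted p = 0.0055) and -0.76 ± 0.21 (adjusted p = 0.0096). Without control replicate 1 the count was 2, SNHG5 and SNHG7, and without each of the other 3 libraries it was 4 to 6. SNHG8 had a log2 fold change of -0.34 ± 0.19 (adjusted p = 0.158), and SNHG16, host of C/D snoRNAs, one of -0.05 ± 0.20.

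The 3 genes that fell are the 3 with the highest GC content of the 9, by the canonical as by the longest transcript. The CHL1 PRMT5i libraries are among those with lower levels of GC-rich than of GC-poor genes. With the correction on the longest transcript, 0 of 9 were called up and 3 down, and with that on the canonical transcript 1 up and 1 down. The shares of all genes given above for this comparison belong to the uncorrected fit. SNHG7 then had log2 fold changes of -0.05 and -0.06, SNHG12 of 0.05 and -0.13, and SNHG6 of -0.12 and -0.15, none of them past the test. SNHG5 was 0.32 (adjusted p = 0.0947) by the longest transcript and 0.93 (adjusted p = 0.000747) by the canonical one. SNHG15 kept its direction, at -0.66 (adjusted p = 0.0208) and -0.52 (adjusted p = 0.0513). SNHG8, whose transcript is the poorest in GC, was lower by both corrections, at -1.19 (adjusted p = 0.00065) and -1.23 (adjusted p = 0.00057). Whether the lower level of GC-rich genes arose in the cells or in the libraries was not tested.

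**Figure D3:**
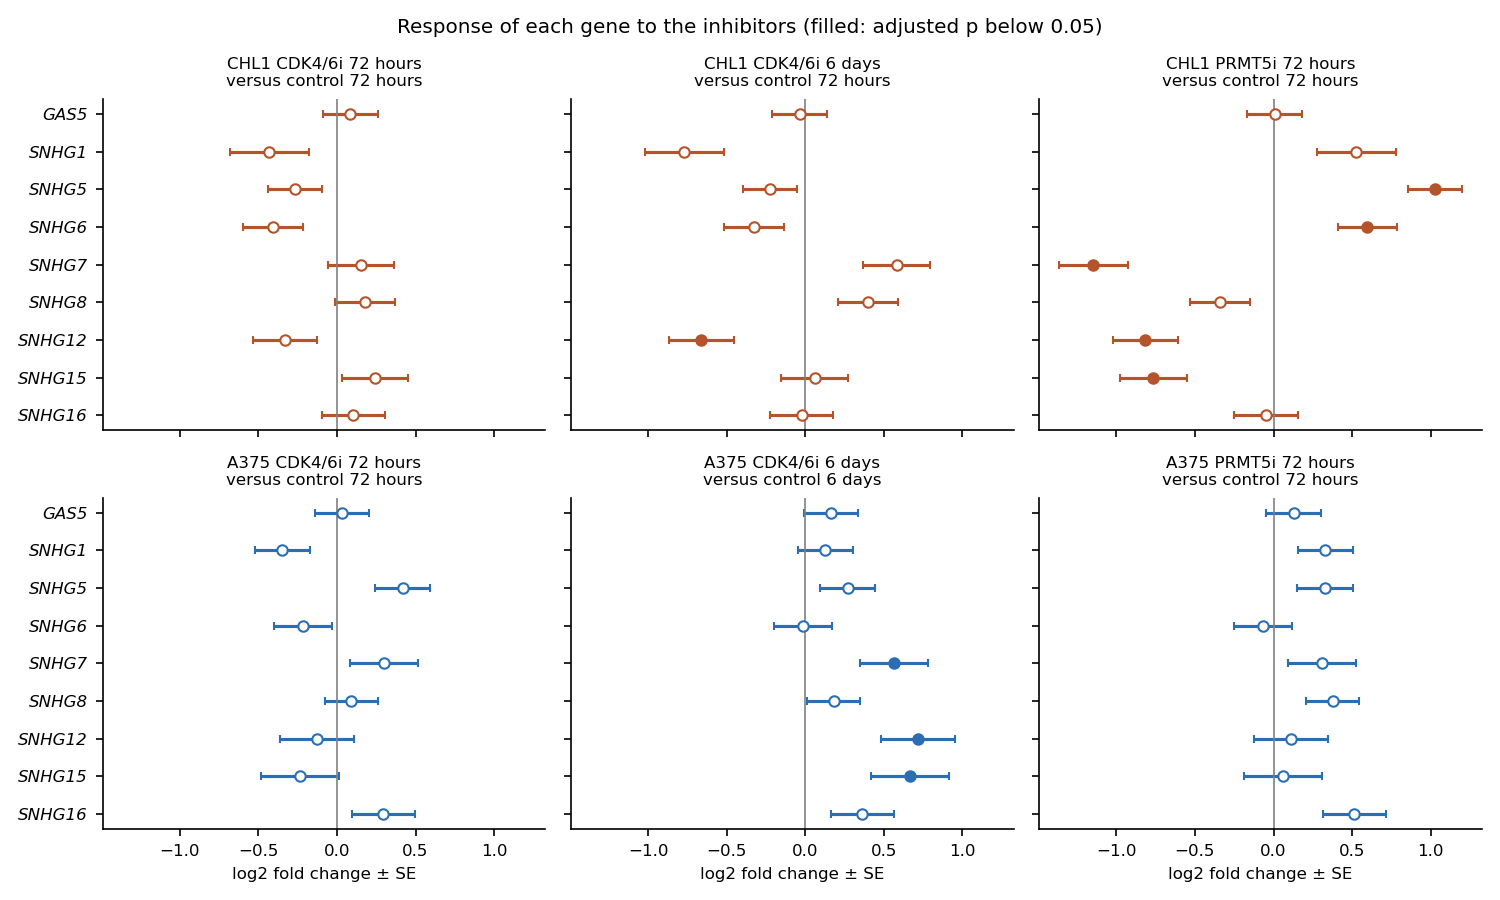
Log2 fold change with its standard error (x axis) of GAS5 and 8 snoRNA host genes (rows) in the 6 comparisons of treated with control cells, 1 panel each. Filled points passed an adjusted p of 0.05. Points are filled for 5 genes under PRMT5i in CHL1, for 3 under CDK4/6i for 6 days in A375 and for SNHG12 under CDK4/6i for 6 days in CHL1.

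CDK4/6i for 72 hours left all 9 genes short of the test in both lines, where 4.98% of all genes were called in CHL1 and 13.3% in A375. In CHL1 the log2 fold changes ran from -0.43 ± 0.25 for SNHG1 to 0.24 ± 0.21 for SNHG15, with a median of 0.08, against a median of 0 over all genes. In A375 they ran from -0.35 ± 0.18 for SNHG1 to 0.42 ± 0.18 for SNHG5. SNHG5 was at 91.7 and 97.8 CPM in treated A375 cells, against 61.3 and 75.1 CPM in the control, and did not overlap it (adjusted p = 0.131). With either GC correction its fold change was called, at 0.57 (adjusted p = 0.0262) and 0.45 (adjusted p = 0.0237). SNHG1 was at 84.2 and 88.7 CPM against 103 and 108 CPM, again without overlap. How many of all genes did not overlap in this comparison is not given here. In a fit of the 6 A375 libraries of 72 hours alone, which leaves out the widely spread 6-day controls, 2 genes were called up (SNHG5 and SNHG7) and SNHG1 down. For that fit the share of all genes called is not given here.

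After 6 days of CDK4/6i in CHL1, SNHG12 alone passed the test of the 9, downward, where 7.8% of all genes were called down. It was at 12.5 and 12.6 CPM, against 22.0 and 17.98 CPM in the control, a log2 fold change of -0.66 ± 0.21 (adjusted p = 0.0485). SNHG1 was at 46.5 and 45.5 CPM against 89.6 and 68.5 CPM, the lowest level of this gene in any group, with a log2 fold change of -0.77 ± 0.25 that missed the threshold (adjusted p = 0.0587). SNHG7 was at 50.7 and 64.6 CPM against 42.7 and 35.0 CPM, with 0.58 ± 0.21 (adjusted p = 0.0837). Without any 1 of the 4 libraries compared, the count of calls was 0, and without the 2 PRMT5i libraries in the fit it was 3 (1 up and 2 down). Set directly against each other, the 2 durations of CDK4/6i in CHL1 gave 0 calls among the 9 genes, where 0.0145% of all genes were called. In it SNHG7 had the largest difference, 0.43 ± 0.21 (adjusted p = 0.667).

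In A375 after 6 days, 3 of 9 genes were higher under CDK4/6i than in the 6-day control, where 21.8% of all genes were called up. SNHG12 was at 43.7 and 43.2 CPM, against 18.4 and 34.0 CPM in the control (log2 fold change 0.72 ± 0.24, adjusted p = 0.022). SNHG15 was at 21.3 and 17.8 CPM against 8.87 and 15.6 CPM (0.67 ± 0.25, adjusted p = 0.0386). SNHG7 was at 50.4 and 46.3 CPM against 24.3 and 40.6 CPM (0.57 ± 0.22, adjusted p = 0.0455). The treated libraries agreed more closely and the wider spread lay in the controls. Of these, replicate 1 had both the lower levels of these 3 genes and the deeper loss of GC-rich genes as a whole. Without control replicate 1 the count was 0, and without control replicate 2 it was 5, all up, with log2 fold changes of 1.26 for SNHG12, 1.17 for SNHG15 and 1.02 for SNHG7. Without either treated library it was 0.

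Against the 72-hour control, the 6-day CDK4/6i libraries of A375 gave the opposite sign for 7 of 9 genes. SNHG12 was then -0.22 (adjusted p = 0.509), SNHG15 -0.15 (adjusted p = 0.681) and SNHG7 -0.51 (adjusted p = 0.0842), while SNHG1 (-0.48, adjusted p = 0.0469) and SNHG8 (-0.51, adjusted p = 0.0287) were called lower. The controls themselves differed: 6 of 9 genes were lower in the A375 control of 6 days than in that of 72 hours, where 23.8% of all genes were called lower, among them SNHG7 (-1.08 ± 0.22, adjusted p = 0.0011) and SNHG12 (-0.94 ± 0.24, adjusted p = 0.0044). Time in culture, library set and GC content move together here and cannot be told apart. With the GC corrections 8 of 9 were lower in the 6-day than in the 72-hour control. Under CDK4/6i for 6 days 4 of 9 were called up with the longest transcripts and 2 with the canonical ones. For these corrected counts too, the shares of all genes above are those of the uncorrected fit. SNHG7, SNHG12 and SNHG15 no longer passed the test against the 6-day control, and SNHG8 (0.75, adjusted p = 0.00365, and 0.77, adjusted p = 0.0033) and SNHG6 (0.43, adjusted p = 0.0345, and 0.45, adjusted p = 0.0283) did with both, while GAS5 and SNHG5 (0.69, adjusted p = 0.00666) did with the longest transcripts alone. The difference between the responses at 6 days and at 72 hours called 0 of the 9, where 1.08% of all genes were called. SNHG15 (0.90 ± 0.35) and SNHG12 (0.85 ± 0.33) had the largest differences, at adjusted p of 0.179 and 0.183.

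**Figure D4:**
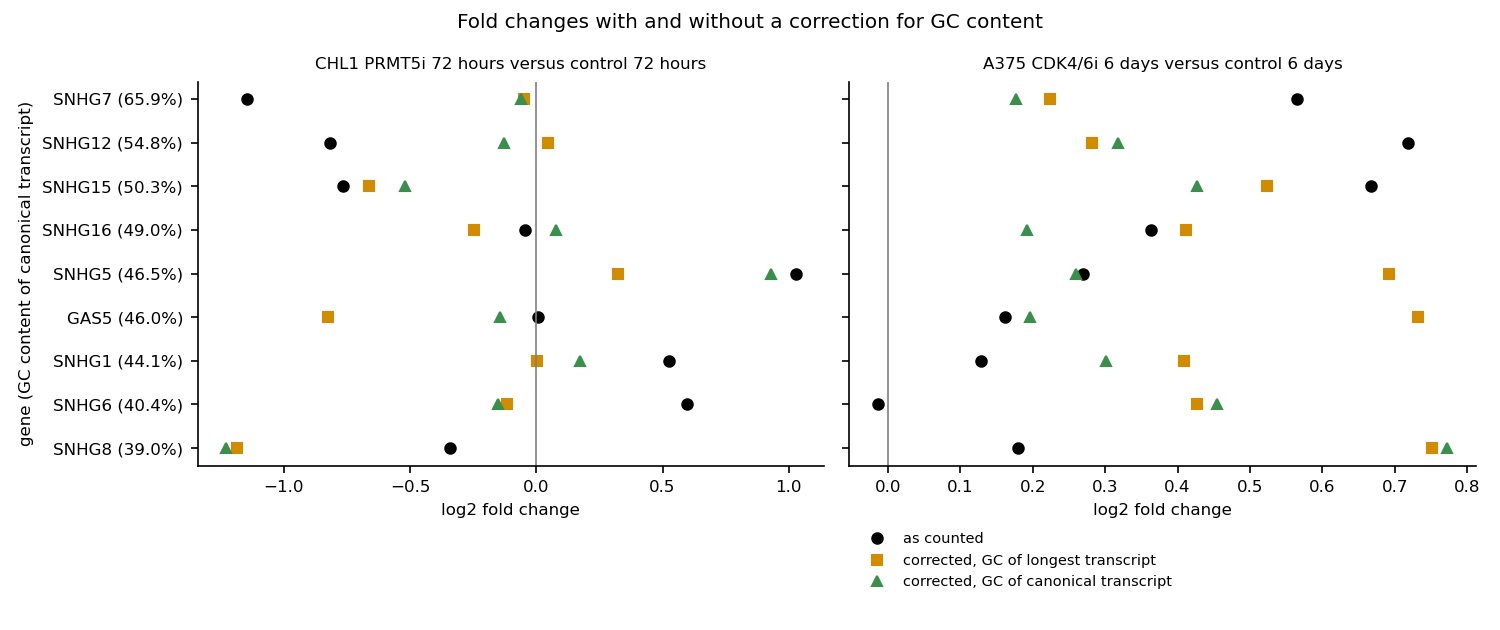
Log2 fold change (x axis) of the 9 genes in the 2 comparisons that rest on libraries with shifted GC content, as counted (circles) and after correction on the GC content of the longest (squares) or canonical (triangles) transcript. Rows are ordered by the GC content of the canonical transcript, from 39.0% at the bottom to 65.9% at the top, and the x axes of the panels differ in scale. SNHG7 and SNHG12 move towards 0 in both panels, and GAS5 and SNHG5 differ between the 2 corrections.

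PRMT5i in A375 called 0 of the 9 genes, where 2.61% of all genes were called, and 8 of 9 log2 fold changes were above 0, with a median of 0.31 against 0 over all genes. For 7 of 9, GAS5 among them, both treated libraries lay above both controls, as they did for 26.9% of all genes. SNHG16 was at 199 and 235 CPM, against 138 and 163 CPM in the control (0.51 ± 0.20, adjusted p = 0.204). SNHG1 was at 133 and 135 CPM against 103 and 108 CPM (0.33 ± 0.18, adjusted p = 0.385). SNHG8 was at 54.7 and 55.6 CPM against 42.6 and 41.5 CPM (0.38 ± 0.17, adjusted p = 0.279). In the fit of the 6 A375 libraries of 72 hours alone, 4 genes were called up: SNHG16 (adjusted p = 0.0126), SNHG8 (adjusted p = 0.0237), SNHG1 (adjusted p = 0.033) and SNHG7 (adjusted p = 0.0498). The share of all genes called in that fit is not given here, and 2.61% is not the share to read these 4 against.

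SNHG1 differed between the inhibitors in both lines. In A375 it was at 133 and 135 CPM under PRMT5i and at 84.2 and 88.7 CPM under CDK4/6i, a log2 difference of 0.68 ± 0.18 (adjusted p = 0.0365), and it was the 1 gene of 9 called, where 2.37% of all genes were called higher. The difference was 0.60 (adjusted p = 0.0345) and 0.64 (adjusted p = 0.0195) with the GC corrections, and it lay between 0.64 and 0.72 without each of the 4 libraries in turn, where it missed the threshold each time. In CHL1 SNHG1 was at 144 and 81.0 CPM under PRMT5i and at 67.9 and 49.5 CPM under CDK4/6i, a difference of 0.96 ± 0.25 (adjusted p = 0.00625). There it was 0.34 (adjusted p = 0.265) and 0.51 (adjusted p = 0.0973) with the GC corrections, and 0.49 (adjusted p = 0.078) without PRMT5i replicate 1. This CHL1 comparison called 6 of the 9 genes, 3 in each direction, where 57.8% of all genes were called, 28.4% higher and 29.4% lower.

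The lines differed in the response of some host genes. PRMT5i changed 6 of 9 differently in CHL1 and A375 by the test of the difference, where 40.9% of all genes were called, 18.8% upward and 22.1% downward, with SNHG7 at -1.49 ± 0.32 (adjusted p = 0.0015) and SNHG8 at -0.75 ± 0.23 (adjusted p = 0.0149) for the response of CHL1 minus that of A375. With the GC corrections 3 and 2 of the 9 passed the test. Of the 6, these were SNHG8 alone with the longest transcripts and SNHG5 and SNHG8 with the canonical ones (SNHG8 at -1.65, adjusted p = 0.00048, and -1.70, adjusted p = 0.00043, in turn). CDK4/6i for 6 days changed 2 of 9 differently, where 9.51% of all genes were called downward: SNHG12 fell in CHL1 and rose in A375 (difference -1.40 ± 0.33, adjusted p = 0.0059), and SNHG1 was lower in CHL1 (-0.92 ± 0.32, adjusted p = 0.0445). Both kept direction and call with either GC correction, and SNHG1 missed the threshold without 6 of the 8 libraries in turn. The CHL1 response was taken against a 72-hour control and the A375 response against a 6-day control, in which SNHG1 (-0.61 on the log2 scale) and SNHG12 (-0.94) were lower than in the A375 control of 72 hours. With 72-hour controls in both lines, a fit added after the data were seen, SNHG12 (-0.50 ± 0.32, adjusted p = 0.336) and SNHG1 (-0.34 ± 0.31, adjusted p = 0.521) no longer passed the test of the difference. SNHG7 (1.04 ± 0.32, adjusted p = 0.0314) and SNHG8 (0.85 ± 0.23, adjusted p = 0.0163) then did, both higher in CHL1. The difference between lines at 6 days therefore depended on the A375 control. CDK4/6i for 72 hours changed 0 of 9 differently, where 0.642% of all genes were called.

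The companion genes below were tested without GC correction, so their calls under PRMT5i in CHL1 and at 6 days in A375 rest on the libraries with shifted GC content, whose part in them was not tested. Their counts are read against the share of genes of at least 1 CPM called in either direction, which was 69.7% under PRMT5i in CHL1 and 51.7% at 6 days in A375, 20.9% at 6 days in CHL1 and 16.9% at 72 hours of CDK4/6i in A375, 6.72% at 72 hours of CDK4/6i in CHL1 and 3.37% under PRMT5i in A375. Of 23 other noncoding snoRNA host genes listed, 11 had an entry and 8 in each line reached a mean of 1 CPM. PRMT5i lowered 4 of 8 in CHL1, SNHG11 most (-1.11 ± 0.23, adjusted p = 0.00168). CDK4/6i for 6 days raised 1 of 8 in CHL1 (C6orf48, 0.66 ± 0.19, adjusted p = 0.0348) and in A375 raised 3, SNHG11 most (0.75 ± 0.28, adjusted p = 0.0404), and lowered SNHG10 (-1.02 ± 0.36, adjusted p = 0.0337). SNHG10 was at a low level there, with means of 1.51 CPM in the control and 0.74 CPM in treated cells. GAS5-AS1, the antisense RNA at the GAS5 locus that stands in this list though it is not itself a host, fell in A375 under CDK4/6i for 72 hours from 5.15 ± 0.23 to 2.65 ± 0.28 CPM (mean ± SD, log2 fold change -1.01 ± 0.28, adjusted p = 0.0234). GAS5 overlaps it on the other strand at a mean of 207.5 CPM in that control. If strand was not kept, reads of both cannot be told apart. Of protein-coding hosts other than ribosomal proteins, 23 were measured, of which PRMT5i in CHL1 raised 6 and lowered 8, against the share of 69.7% called. TAF1D, a subunit of the RNA polymerase I selectivity factor, rose by 1.83 ± 0.20 (adjusted p = 8.38e-05), and NOP56, a core protein of C/D snoRNPs, fell (log2 fold change -1.504 ± 0.164, adjusted p = 8.32e-05). CDK4/6i for 72 hours called 0 of the 23 in either line. At 6 days 3 fell in CHL1, the splicing factor gene SF3B3 most (-0.89 ± 0.17, adjusted p = 0.00609). In A375 4 rose and 5 fell, with the elongation factor EEF2 at 0.89 and TAF1D at -1.20. Both were opposite in sign to their values in CHL1 under PRMT5i (-1.38 and 1.83). The libraries with shifted GC content are the treated ones there and the controls here, and their part in this was not tested.

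The proteins that pack snoRNAs were counted alongside. Of 19 snoRNP core and assembly genes, CDK4/6i for 72 hours called 0 in CHL1 and lowered 1 in A375 (NAF1, an H/ACA assembly factor, -0.82 ± 0.21, adjusted p = 0.0165). At 6 days 2 fell in CHL1, FBL most (fibrillarin, the methyltransferase of C/D snoRNPs, from 75.1 to 39.7 CPM, -0.90 ± 0.19, adjusted p = 0.00842), and 6 fell (NAF1 most, -1.43) and 3 rose (the helicase RUVBL2 most, 0.69) in A375, against shares of 20.9% and 51.7% of measured genes called. PRMT5i raised 8 (ZNHIT6, a C/D assembly factor, most, 1.502) and lowered 9 (RUVBL2 most, -1.54) in CHL1, where 69.7% were called, and called 0 in A375, where 3.37% were. The medians lay between -0.28 and 0.21 on the log2 scale over the 6 comparisons.

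Genes of nonsense-mediated decay, the pathway that removes spliced host RNAs, were counted next. Of 21 measured (decay factors and known targets of the pathway), CDK4/6i for 72 hours called 0 in either line. At 6 days 2 rose and 1 fell in CHL1 (SMG6, the decay endonuclease, -0.72 ± 0.15, adjusted p = 0.00749), and 3 rose (SMG5 most, 0.88) and 5 fell (the exonuclease XRN1 most, -1.11) in A375. Of the 2 that rose in CHL1, UPP1 rose most (0.78). PRMT5i raised 6 (UPF3B most, 1.19) and lowered 10 (GADD45B most, -1.48) in CHL1, where 69.7% of measured genes were called, and in A375 raised GADD45A, a growth arrest gene and target of the pathway (from 21.4 to 41.4 CPM, 0.94 ± 0.23, adjusted p = 0.0414). Of 16 TOP mRNAs that do not encode ribosomal proteins, CDK4/6i for 72 hours called 0 in CHL1 and lowered 1 in A375, the nuclear import receptor IPO5 (-0.68 ± 0.19, adjusted p = 0.027). PRMT5i raised 6 (TPT1 most, 1.45) and lowered 5 (EEF2 most, -1.38) in CHL1, against the same 69.7%, and called 0 in A375. CDK4/6i for 6 days lowered 3 in CHL1 (the nucleolar protein NPM1 most, -0.81) and in A375 raised 3 (EEF1D most, 0.90) and lowered 2 (NAP1L1 most, -1.03).

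Glucocorticoid receptor targets were listed because GAS5 RNA can bind the receptor. In the fits without GC correction, FKBP5, a chaperone that the receptor induces, fell under CDK4/6i in all 4 comparisons. GAS5 did not pass the test in any of these fits. The values of FKBP5 follow. At 72 hours FKBP5 went from 76.4 ± 1.8 to 35.4 ± 1.9 CPM (mean ± SD) in CHL1 (-1.11 ± 0.18, adjusted p = 0.00596) and from 29.5 ± 1.5 to 12.6 ± 1.4 CPM in A375 (-1.28 ± 0.19, adjusted p = 0.00044). After 6 days the log2 fold changes were -1.53 and -0.99. It was 1 of 7 genes of the list measured in CHL1 and of 8 in A375, and at 72 hours no other passed the test in either line. TSC22D3, the glucocorticoid-induced leucine zipper, rose after 6 days of CDK4/6i in CHL1 (0.76 ± 0.21, adjusted p = 0.0305) and in A375 (1.14 ± 0.42, adjusted p = 0.0371), and CEBPD fell in A375 (-2.26). Both A375 values rest on low levels: TSC22D3 went from 0.97 to 2.16 CPM and CEBPD from 2.92 to 0.61 CPM. In all, 1 rose and 1 fell in CHL1 at 6 days, and 2 rose and 3 fell in A375. Under PRMT5i FKBP5 did not pass the test, 3 genes rose and 2 fell in CHL1 (KLF9, 0.75, and PER1, -1.59, most), and ERRFI1 fell in A375 (-0.79 ± 0.18, adjusted p = 0.0317).

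The genes whose levels ran closest to GAS5 over the 18 libraries, by the root mean square difference of log2(CPM + 1) after centring each line on its mean, were DDX42 (0.08), MRPS22 (0.09) and ZKSCAN2 (0.09). GAS5 itself deviated from its line means by 0.16. Without the A375 6-day controls the closest were SON, DDX42 and ALDH9A1. With values corrected on the GC content of the longest transcript, where GAS5 deviated by 0.44, they were MRPS22, PMPCB and UQCRFS1. MRPS22, a mitochondrial ribosomal protein gene, and DDX42, an RNA helicase gene, each recurred in 2 of the 3 lists. The lists share libraries, so a recurrence is not independent.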

How the data were processed

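The authors made TruSeq libraries from poly-A RNA of 2 replicates a group, aligned the reads to GRCh37 with HISAT2 and counted them per gene with HTSeq at default settings, which use strand. Whether the library kit kept strand is not given in the sources used here. The deposited values are whole numbers with different totals per library and were treated as raw counts per gene, although the name of the table points to normalised values. The labels do not say whether the replicates are separate cultures, so p-values measure the spread between libraries, which may be technical. Since 2 libraries a group give little precision, a call that was not made does not show that a gene did not change. CPM is a share of a library, so a change in total RNA per cell cannot be told apart from no change.

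Counts were scaled by TMM and tested with edgeR 4.0.16 (R 4.3.3, quasi-likelihood test, prior count 0.125, 2-sided) in 1 fit for each line (8 CHL1 and 10 A375 libraries). Differences between lines used a fit of all 18. All 20705 genes entered and p-values were adjusted over them. The standard error is the log2 fold change divided by the square root of F. GC content came from GENCODE release 44 transcripts on GRCh37 (15208 genes matched by symbol, 1124 by an older one), and the correction fitted a loess curve (span 0.4) per library over 13655 genes with a GC value and a mean of at least 1 CPM, entered as an offset. The correction on canonical transcripts, the CHL1 fit without PRMT5i and the line difference at 6 days with 72-hour controls in both lines were chosen after seeing the data.

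The genes and the companion lists were chosen with earlier results of these data known. All listed host genes with an entry are named, and from each companion list the called gene with the largest rise or fall. SnoRNAs within the hosts carry no poly-A tail and are not reported here. DESeq2 1.42.0, limma voom 3.58.1, other scalings, filters, fits and each library left out were the alternatives.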

Additional observations from a re-analysis of the deposited data

Results flagged for a closer look

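For 8 results the responses of the lines differed by the test of the difference itself (edgeR's quasi-likelihood test on all 18 libraries, Benjamini-Hochberg adjusted over all genes, CHL1 minus A375 on the log2 scale). Under CDK4/6i for 6 days these were SNHG1 (-0.92, adjusted p = 0.0445) and SNHG12 (-1.40, adjusted p = 0.00588). These 2 compare a CHL1 response against a 72-hour control with an A375 response against a 6-day control, and with 72-hour controls in both lines neither passed the test (-0.34, adjusted p = 0.521, and -0.50, adjusted p = 0.336). Under PRMT5i for 72 hours SNHG5 (0.67, adjusted p = 0.029) and SNHG6 (0.63, adjusted p = 0.0493) had the higher response in CHL1. SNHG7 (-1.49, adjusted p = 0.0015), SNHG8 (-0.75, adjusted p = 0.0149), SNHG12 (-0.96, adjusted p = 0.0239) and SNHG15 (-0.86, adjusted p = 0.0498) had the lower. Of these, SNHG6 and SNHG15 lay just under the threshold of 0.05. The count of calls under PRMT5i also fell with libraries left out, as given below. The 6 PRMT5i differences rest on the 2 CHL1 PRMT5i libraries with shifted GC content and the 6-day differences on the A375 6-day controls, and the part of GC content in them was not tested beyond the corrections given above.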

How the results depend on the processing

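Counts of calls are out of 9 genes. They are given without the share of all genes called under the same alternative. For CHL1 under CDK4/6i for 6 days (1 call) the count was 0 at an adjusted p below 0.01, at a fold change of at least 1 on the log2 scale, with limma voom, with a filter on low CPM and over the genes with a GC value. It was 2 with DESeq2 and with the likelihood ratio test, and 3 with only the compared groups or without the PRMT5i libraries in the fit. For CHL1 under PRMT5i (5 calls) it was 2 with the fold limit, 3 with the GC correction on longest transcripts and 2 with that on canonical ones. For A375 under CDK4/6i for 6 days (3 calls) it was 0 at 0.01, with the fold limit and with only the compared groups, and 1 with median-of-ratios scaling, and 4 and 2, all up, with the GC corrections on longest and canonical transcripts. For PRMT5i against CDK4/6i in A375 (1 call) it was 0 at 0.01, with the fold limit, with limma voom and with all 18 libraries in 1 fit, and in CHL1 (6 calls) it was 3 with the canonical GC correction. For the A375 controls (6 calls) it was 1 with the fold limit and 2 with only the compared groups, and 8 with each GC correction. For the line difference under CDK4/6i for 6 days (2 calls) it was 1 at 0.01, with the fold limit, with median-of-ratios scaling and over the genes with a GC value, and 5 with the GC correction. With the A375 control of 72 hours it was 2, but these were SNHG7 and SNHG8 in place of SNHG1 and SNHG12. Under PRMT5i (6 calls) it was 1 at 0.01 and with the fold limit, and 3 and 2 with the GC corrections. For the untreated lines (7 calls) it was 4 with the fold limit and 4 against the A375 control of 6 days, and 9 with each GC correction. For CDK4/6i for 72 hours in A375 (0 calls) it was 1 with each GC correction and 3 with only the compared groups or the 6 libraries of 72 hours, and for PRMT5i in A375 (0 calls) it was 4 with those 6 libraries.

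Leaving out each library in turn gave 0 to 0 calls for CHL1 at 6 days, 2 to 6 for CHL1 PRMT5i (2 without control replicate 1), 0 to 5 for A375 at 6 days, 0 to 0 for PRMT5i against CDK4/6i in A375, 3 to 6 for the A375 controls (3 without the 72-hour control replicate 2), 1 to 3 and 2 to 4 for the line differences under CDK4/6i for 6 days and PRMT5i, and 0 to 4 for the A375 response at 6 days minus that at 72 hours (4 without the 6-day control replicate 2). Log2 fold changes near 0 changed sign: GAS5 ran from -0.11 to 0.042, SNHG15 from -0.13 to 0.28 and SNHG16 from -0.16 to 0.13 in CHL1 at 6 days, SNHG16 from -0.037 to 0.26 in CHL1 under CDK4/6i for 72 hours, GAS5 from -0.25 to 0.22 and SNHG16 from -0.40 to 0.24 in CHL1 under PRMT5i. In A375 GAS5 ran from -0.044 to 0.11 under CDK4/6i for 72 hours, SNHG15 from -0.017 to 0.14 and SNHG6 from -0.22 to 0.069 under PRMT5i, and SNHG1 from -0.050 to 0.33 and SNHG6 from -0.061 to 0.032 under CDK4/6i for 6 days.

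Other changes of sign, whose cause was not tested, were these. In CHL1 under PRMT5i, SNHG16 was 0.0032 with median-of-ratios scaling, 0.0032 with DESeq2 and 0.045 with only the compared groups, and GAS5 was -0.010 with limma voom, -0.025 with the CPM filter and -0.013 with all 18 libraries. The GC correction on longest transcripts gave, there, -0.83 for GAS5, -0.12 for SNHG6 and 0.046 for SNHG12, in CHL1 under CDK4/6i -0.035 for SNHG7 at 72 hours and 0.076 for SNHG16 at 6 days, in A375 at 6 days 0.43 for SNHG6, and for the PRMT5i line difference -0.066 for SNHG5 and -0.11 for SNHG6. That on canonical transcripts gave -0.14 for GAS5, -0.15 for SNHG6 and 0.080 for SNHG16 in CHL1 under PRMT5i, -0.037 for SNHG7 at 72 hours, 0.076 for GAS5 and 0.036 for SNHG16 at 6 days in CHL1, 0.45 for SNHG6 in A375 at 6 days and -0.16 for SNHG6 in the line difference. The 72-hour control in place of the 6-day control gave -0.19 for GAS5, -0.48 for SNHG1, -0.51 for SNHG7, -0.51 for SNHG8, -0.22 for SNHG12, -0.15 for SNHG15 and -0.28 for SNHG16 in A375 at 6 days, and the 6-day control gave 0.26 for SNHG7 and 0.11 for SNHG15 in the untreated lines.

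Replicate numbers were shared between groups, but the labels do not say that a number marks a shared day or batch, and 2 numbers cannot show a pairing. Deviations of same-numbered libraries correlated at 0.218 to 0.481 among the A375 groups of 72 hours and at -0.336 to 0.444 among the CHL1 groups. With the replicate number as a block the count was 2 for CHL1 at 6 days (2 with the GC correction as well), 3 for CHL1 under PRMT5i with the GC correction, and, in the 6 A375 libraries of 72 hours, 4 for CDK4/6i, 5 for PRMT5i and 5 for PRMT5i against CDK4/6i (6, 6 and 4 with the GC correction), against 3, 4 and 1 in the same 6 libraries without the block. GAS5 in CHL1 under PRMT5i was -0.0052 with the block. With block and GC correction it was -0.84, SNHG1 -0.024, SNHG6 -0.12 and SNHG12 0.030, while SNHG7 was -0.034 at 72 hours and SNHG16 0.090 at 6 days of CDK4/6i. In these data 2 libraries a group limit the size of change that can be told from the spread.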
